A study of Mus musculus with 20 samples.

Results

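The genes described are 9 that eosinophils, basophils and mast cells use: Fcer1a and Ms4a2, which encode chains of the high-affinity IgE receptor, the proteases Cpa3 and Mcpt8, the surface receptors Il5ra, Ccr3 and Cd200r3, and the eosinophil granule proteins Epx and Prg2. They were taken by name, and 10 of the 39429 non-control probes of the array carry one of these names, among 31093 gene names in all; Cd200r3 has 2 probes and each other gene has 1. The measurements are single-colour Agilent hybridizations of whole-blood RNA from male mice. Mice labelled WT (C57BL/6) and mice labelled Il10-/- (B6.129P2-Il10tm1Cgn/J, a disruption of the interleukin 10 gene that serves as a model of inflammatory bowel disease) were littermates 8 to 10 weeks old. They received 7 Gy of whole-body X-rays or a sham exposure of 0 Gy, and blood drawn by cardiac puncture 24 h later went into PAXgene solution before RNA isolation and globin reduction. Each of the 4 groups has 5 arrays, counted as 1 mouse each. Each of the 5 slides carries 1 array of every group under 1 replicate number. All values below are log2 processed signals after scaling of the arrays to one another, and a probe is called well above background where the image software marked its spot so.

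Eosinophils, basophils and mast cells are the effector cells of allergy and of defence against helminths. Eosinophils and basophils circulate in blood as rare granulocytes, the first maintained by interleukin 5 and drawn into tissue by eotaxins, whereas mast cells complete their development in tissue and are hardly found in blood. Basophils and mast cells carry the IgE receptor and store proteases and histamine in granules, and the GATA factors take part in the transcription of many of these genes.

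Signal over background sets the limits of the measurements. A median of 50.5% of spots per array were well above background, but on unirradiated replicate 5 labelled WT the share was 29.9%, against 34.6% to 57.8% on the other 19 arrays, and its repeated spots differed by a median SD of 0.34 on the log2 scale, against 0.08 to 0.14 elsewhere. For the 4 members that could be measured, the genotype difference at 0 Gy and the response of the WT label are given with and without this array; results of other genes rest on all arrays. In all 4 groups replicates 1 and 2 were more alike than any other pair, with a robust SD of 0.18 to 0.27 between their probes against 0.29 to 1.26 in the 36 other pairs; they are labelled as separate mice and were counted so. The 3 largest of these values, 1.14, 1.23 and 1.26, belong to unirradiated replicate 4 labelled WT against replicates 1 to 3 of its group, so this array stood apart too, and the Cpa3, Il5ra and Ccr3 calls in mice labelled WT were kept without it.

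The Il10 probe ran against the labels. Its log2 signal was 2.17 ± 0.99 (SD, n = 5) and 1.80 ± 0.51 in unirradiated and irradiated mice labelled WT, with 0 of 10 arrays well above background, and 6.25 ± 0.26 and 6.37 ± 0.55 in those labelled Il10-/-, with 10 of 10. Where this probe lies relative to the disrupted part of the gene was not established, so genotypes are named by their labels, and the directions of all genotype differences below rest on those labels.

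Of the 10 probes, 4 could be followed through all groups. Cpa3 was well above background on 18 of 20 arrays, Ccr3 and Il5ra on 17 each and Fcer1a on 16. Prg2 reached this level on 5 arrays, Mcpt8 on 4 and Epx on 1, whereas Ms4a2 and both Cd200r3 probes did so on 0 of 20. The first 4 probes passed both filters of the analysis and the other 6 were removed as dim, so a count over the 4 is not a count over the whole list. No member spot was saturated. A Cpa3 probe at chr3:20115674-20115733 of mm9, a Fcer1a probe at chr1:175151438-175151497, a Ccr3 probe at chr9:123945225-123945284 and an Il5ra probe at chr6:106660378-106660437 gave these 4 measurements, and the files do not say which exon each one matches.

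The windows around the starts of these genes were read for short letter patterns of factors known in these lineages. RefSeq promoter windows of GRCm38.p6, 250 bases before to 50 after the gene start, were found for 8 of the 9 members, all but Prg2. Of 4 patterns searched on both strands, the pattern AGATAA, of the kind GATA factors bind, was in 6 of the 8 windows and in 11.2% of all 32851 windows. TGATAA was in 1 of 8 and 9.05%, GAGGAA in 5 of 8 and 28.3%, and TTTGCAT in 0 of 8 and 4.63%; the first 2 patterns share the letters GATAA. The windows of the 4 measured members follow with that of Mcpt4, a mast cell protease whose signal ran closest to that of Cpa3, each from 5′ to 3′ on its gene's strand with AGATAA or TGATAA, or the reverse complement TTATCT, in capitals. They lie at chr3:20242132-20242431 (Cpa3, minus strand), chr14:56062261-56062560 (Mcpt4, minus), chr1:173227180-173227479 (Fcer1a, minus), chr6:106748988-106749287 (Il5ra, minus) and chr9:124021721-124022020 (Ccr3, plus).
Cpa3: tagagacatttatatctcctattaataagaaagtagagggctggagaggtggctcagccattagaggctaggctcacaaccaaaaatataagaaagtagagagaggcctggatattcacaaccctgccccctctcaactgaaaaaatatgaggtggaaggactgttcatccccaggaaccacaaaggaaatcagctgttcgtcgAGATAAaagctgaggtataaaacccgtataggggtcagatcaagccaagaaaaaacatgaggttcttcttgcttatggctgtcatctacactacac
Mcpt4: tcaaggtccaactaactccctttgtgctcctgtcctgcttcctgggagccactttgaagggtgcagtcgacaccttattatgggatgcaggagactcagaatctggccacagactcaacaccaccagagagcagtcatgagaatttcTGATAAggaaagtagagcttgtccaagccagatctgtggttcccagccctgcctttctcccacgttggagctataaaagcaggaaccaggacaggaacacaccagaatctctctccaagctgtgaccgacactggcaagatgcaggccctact
Fcer1a: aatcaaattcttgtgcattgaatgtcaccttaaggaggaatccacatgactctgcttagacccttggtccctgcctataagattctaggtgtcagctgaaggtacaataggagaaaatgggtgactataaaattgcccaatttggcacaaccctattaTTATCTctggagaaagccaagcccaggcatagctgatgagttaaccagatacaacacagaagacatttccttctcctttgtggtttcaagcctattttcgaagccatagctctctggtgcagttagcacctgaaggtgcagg
Il5ra: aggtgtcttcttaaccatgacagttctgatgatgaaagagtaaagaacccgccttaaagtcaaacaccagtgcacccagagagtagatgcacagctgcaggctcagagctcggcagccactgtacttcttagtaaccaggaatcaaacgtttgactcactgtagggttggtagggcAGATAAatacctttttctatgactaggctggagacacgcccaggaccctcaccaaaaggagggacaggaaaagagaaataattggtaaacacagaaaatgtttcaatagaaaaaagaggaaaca
Ccr3: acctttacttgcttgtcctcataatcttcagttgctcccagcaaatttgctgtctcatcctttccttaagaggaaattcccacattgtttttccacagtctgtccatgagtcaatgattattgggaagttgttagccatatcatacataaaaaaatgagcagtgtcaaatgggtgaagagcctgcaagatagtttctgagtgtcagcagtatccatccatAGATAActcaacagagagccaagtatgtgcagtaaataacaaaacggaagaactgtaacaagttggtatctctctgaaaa
The marked letters begin 46 bases before the start of Cpa3, 103 before that of Mcpt4, 92 before that of Fcer1a, 74 before that of Il5ra and 30 before that of Ccr3. All 4 measured members hold AGATAA, and 1 of them rose, 2 fell and 1 did not pass the test after 7 Gy in mice labelled WT. A match is a description of the letters and not a binding site.

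The members called after irradiation went in both directions in mice labelled WT. In mice labelled WT, 3 of the 4 tested members passed the threshold 24 h after 7 Gy, 1 upward (Cpa3) and 2 downward (Il5ra and Ccr3), where 11.1% of the 16410 features tested were called. For mice labelled Il10-/-, 1 of 4 passed, Cpa3 again upward, where 11.3% were called. In unirradiated mice 0 of 4 differed between the genotypes by limma (2 at unadjusted p under 0.05), where 0.469% of features were called and 19.3% had an unadjusted p under 0.05. In irradiated mice 0 of 4 did so (2 at unadjusted p under 0.05), where 0% of features were called and 13.0% had an unadjusted p under 0.05. The difference of both responses was called for 0 of 4 members by limma (1 at unadjusted p under 0.05) and for 0% of features, with 7.40% at an unadjusted p under 0.05. The median difference of the 4 members after 7 Gy was -0.46 in mice labelled WT and -0.12 in those labelled Il10-/-, against -0.06 and 0.04 over all probes above the background filter.

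Cpa3, a carboxypeptidase stored in the granules of mast cells and also made by basophils, was low in unirradiated blood. Its log2 signals were 4.22, 4.72, 6.68, 3.86 and 4.39 in replicates 1 to 5 labelled WT and 4.41, 4.48, 6.43, 4.56 and 4.54 in those labelled Il10-/-. Replicate 3 stood highest in both genotypes, and 3 of 5 and 5 of 5 arrays were well above background. After 7 Gy the signals were 9.07, 8.98, 8.17, 8.46 and 7.93 in mice labelled WT. Irradiated mice labelled Il10-/- had 6.48, 6.67, 7.12, 7.35 and 7.44. Every irradiated array was above every unirradiated array of its own genotype, and the irradiated arrays of both genotypes did not overlap. The means were 8.52 ± 0.50 (SD, n = 5) and 7.01 ± 0.42 in irradiated mice labelled WT and Il10-/-, then 4.88 ± 0.87 and 4.78 ± 1.11 in the unirradiated ones labelled Il10-/- and WT, the last pair differing by less than their spread.

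Cpa3 rose 13.4-fold in mice labelled WT (log2 difference 3.75, SE 0.50, adjusted p = 0.000646), in 5 of 5 slides by 1.49 to 4.85. Without the weak unirradiated replicate 5 the log2 difference was 3.65. The rise of Cpa3 in mice labelled Il10-/- was 4.37-fold (log2 difference 2.13, SE 0.39, adjusted p = 0.00316), in 5 of 5 slides by 0.69 to 2.90. Both log2 differences were smallest on slide 3, whose unirradiated arrays were high. The call in mice labelled Il10-/- was lost when replicates 1 and 2 were averaged as if they were 1 mouse (2.13, adjusted p = 0.0187) and with another background correction (normexp, 0.65), and it was kept without each of the 10 arrays in turn. In blood, more cells of a type and more RNA per cell cannot be told apart, and the same holds for every fall reported below.

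Irradiated mice labelled Il10-/- had 2.86-fold less Cpa3 signal than irradiated mice labelled WT (log2 difference -1.51, SE 0.30, adjusted p = 0.218), lower on 5 of 5 slides by -2.59 to -0.49. This difference did not pass the threshold over all features and is not established. Its uncorrected exact permutation p was 0.00794, the smallest that 5 arrays against 5 allow, which restates that the arrays did not overlap. Of all probes of the array, 9.42% had an exact permutation p under 0.05 in this comparison. The difference of the responses to 7 Gy was -1.62 (SE 0.66, adjusted p = 0.636), so a smaller response of Cpa3 in mice labelled Il10-/- is not established. In unirradiated mice Cpa3 differed by 0.11 (SE 0.55), or by 0.01 without the weak array, higher on 3 of 5 slides, and the sign turned with normexp (-0.03).

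**Figure D1:**
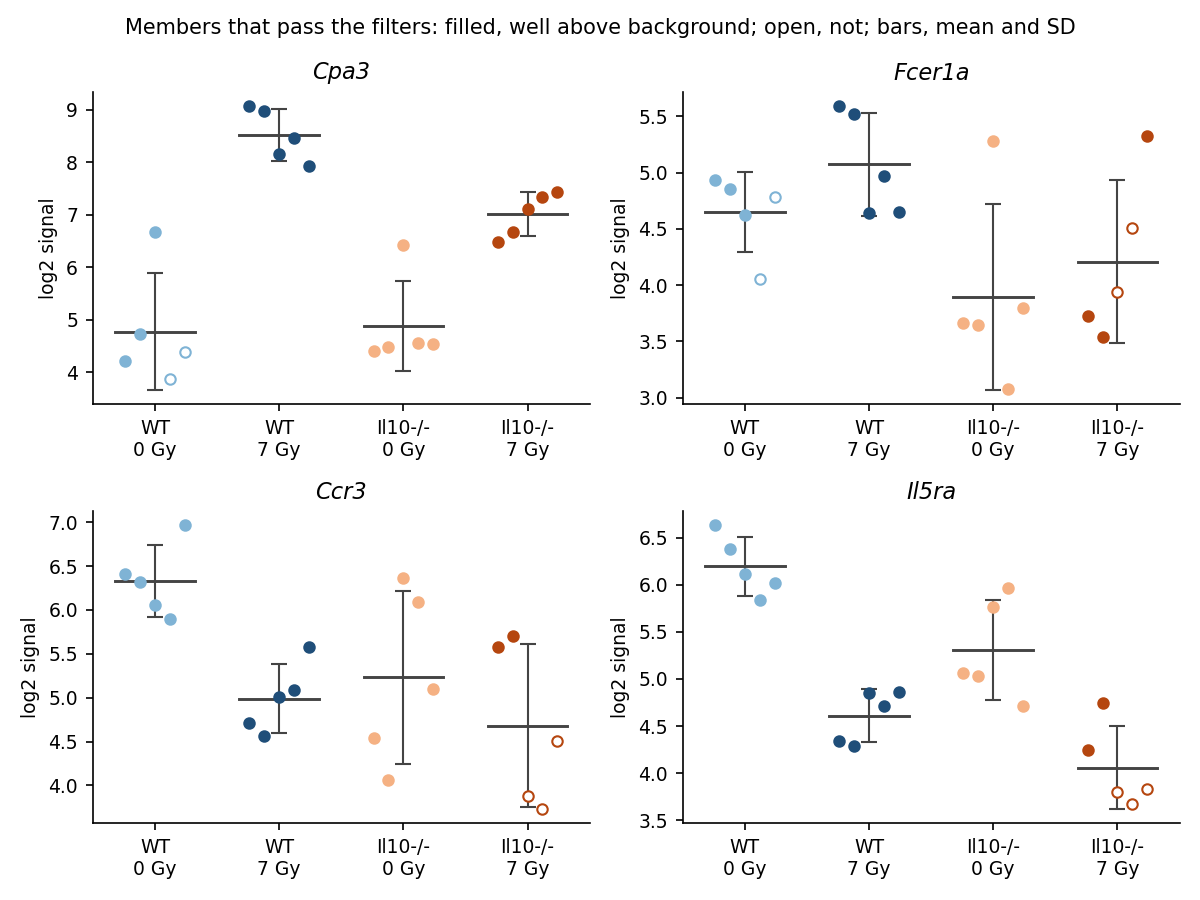
Log2 signal of the 4 members that passed the filters, by group. Each point is 1 array, with replicates 1 to 5 from left to right, filled where the probe was well above background; lines and bars give the mean and SD of 5 arrays. Cpa3 lies at 7.93 to 9.07 in irradiated mice labelled WT and at 6.48 to 7.44 in those labelled Il10-/-, and Il5ra at 5.84 to 6.63 in unirradiated against 4.29 to 4.87 in irradiated mice labelled WT.

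Other mast cell genes rose with Cpa3. Of 13 genes of a mast cell list, 6 passed both filters, and in mice labelled WT 4 of the 6 rose while 0 fell: the chymases Mcpt4 (log2 difference 3.79, SE 0.49), Cma1 (2.93, SE 0.62) and Cma2 (1.59, SE 0.32) and the tryptase Tpsb2 (2.00, SE 0.33). Mcpt4 (3.06, SE 0.62) and Cma1 (1.86, SE 0.42) rose in mice labelled Il10-/- and 0 fell. The median of the 6 was 1.80 and 1.07, and in irradiated mice labelled Il10-/- against irradiated mice labelled WT it was -1.05 with 0 genes called by limma, while the same medians over all probes above the background filter were -0.06, 0.04 and 0.02. Under 3 other scalings of the arrays each of these called genes kept its sign, but Cma2 lost its call in mice labelled WT with quantile normalization, and Cma1 lost its call in mice labelled Il10-/- with the 75th percentile scaling and with quantile normalization. Kit, the receptor that marks mast cells, was removed as dim and was well above background on 7 of 20 arrays, and Mcpt1, Mcpt2 and Mrgprb2 on 0. Mcpt9, 1 of the 6 genes behind the medians, likewise had 0 of 20 arrays well above background.

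The signal of Mcpt4 in each array followed that of Cpa3. It was 4.39, 4.53, 7.21, 5.03 and 4.87 in unirradiated replicates 1 to 5 labelled WT and 9.58, 9.14, 8.56, 8.87 and 8.84 in the irradiated ones. Mice labelled Il10-/- had 3.22, 3.36, 6.93, 4.84 and 4.45 without and 7.04, 7.23, 7.78, 8.13 and 7.91 with irradiation. Replicate 3 was again the highest unirradiated array of both genotypes, and the groups did not overlap after irradiation. Among 22935 probes Mcpt4 had the pattern most like Cpa3 over the 20 arrays (Pearson r = 0.965, and 0.873 for deviations from the group means), followed by an unnamed probe (0.961) and Vsig4 (0.938), a complement receptor of tissue macrophages; the arrays share the group differences, and these values are a description.

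Transcripts of solid tissue varied among the same arrays. Of 7 heart muscle genes, 5 passed both filters, with Myh6 the most abundant and Actc1 and Mb removed as dim, and their summed log2 signal was 8.62, 8.75, 5.11, 9.31 and 8.16 in unirradiated and 15.89, 15.74, 12.13, 6.10 and 6.20 in irradiated mice labelled WT. Mice labelled Il10-/- had sums of 5.64, 5.44, 5.52, 6.69 and 10.46 without and 15.54, 15.42, 12.56, 13.28 and 8.30 with irradiation. Of 7 liver genes, 6 passed, with Serpina1a the most abundant and Apoa1 removed as dim. The liver sum was 10.40, 10.38, 10.21, 11.23 and 10.73 in unirradiated and 19.25, 19.19, 16.72, 10.83 and 13.45 in irradiated mice labelled WT, and 10.38, 10.41, 16.44, 17.30 and 10.62 against 17.52, 17.56, 10.41, 15.94 and 12.65 in those labelled Il10-/-. In irradiated replicate 4 labelled WT both sums lay within the unirradiated range of that genotype, and Cpa3 was at 8.46 there. In irradiated replicates 1 and 2 the heart and liver sums were the highest of both genotypes, and Cpa3 was the highest of its group in mice labelled WT and the lowest in those labelled Il10-/-. What part tissue RNA has in the Cpa3 signal was not tested.

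**Figure D2:**
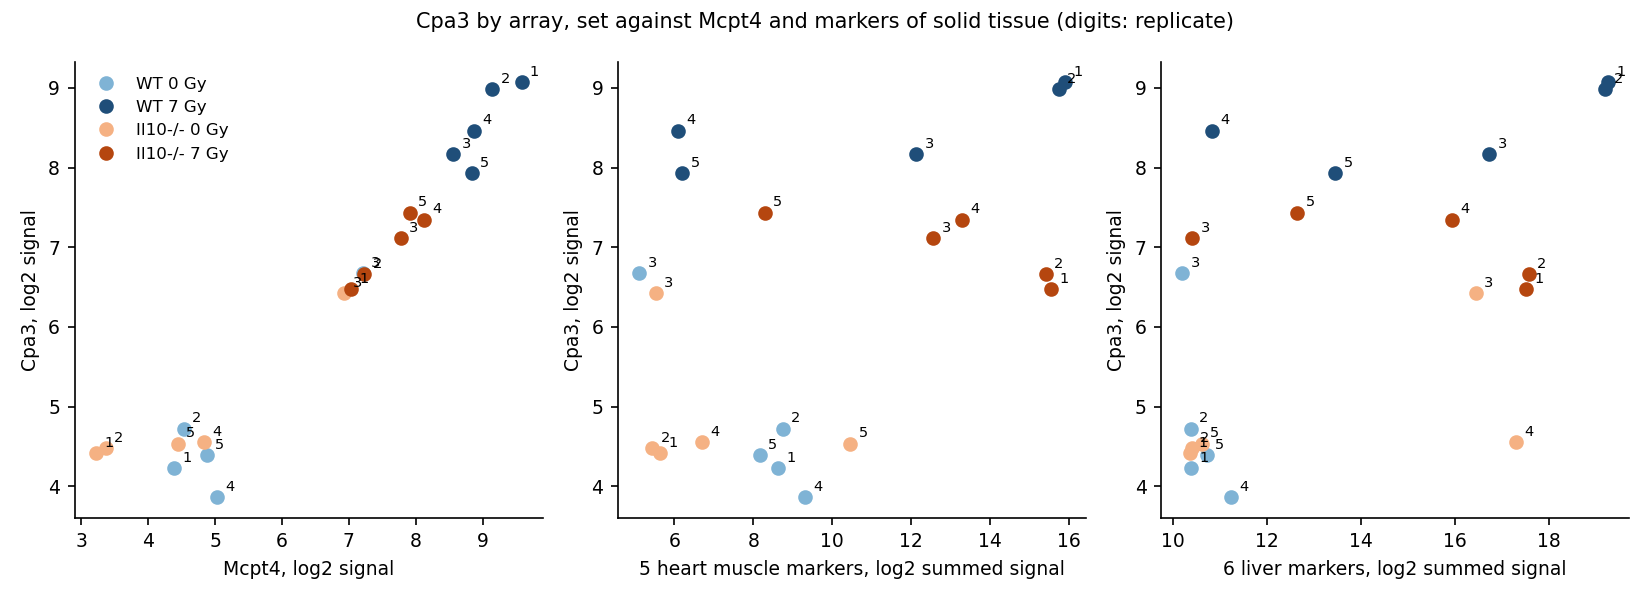
Log2 signal of Cpa3 on each of the 20 arrays against the log2 signal of Mcpt4 and against the log2 summed signal of 5 heart muscle and of 6 liver markers; colours give the groups and digits the replicates. Cpa3 and Mcpt4 lie along a line (r = 0.965), and irradiated replicates 1 to 5 labelled WT have heart sums of 15.89, 15.74, 12.13, 6.10 and 6.20 with Cpa3 at 9.07, 8.98, 8.17, 8.46 and 7.93.

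Mcpt8, a serine protease of basophils, was dim. Its signals in unirradiated replicates 1 to 5 labelled WT were 2.76, 3.76, 2.31, 3.28 and 4.24, and 1.12, 1.38, 0.96, 2.53 and 2.01 after 7 Gy. Those labelled Il10-/- had 5.14, 3.90, 3.27, 2.66 and 3.11 without and 1.21, 1.22, 3.48, 2.46 and 2.12 with irradiation. The probe was well above background on 1 and 3 of 5 unirradiated and on 0 of 10 irradiated arrays, so no fold is given. The exact permutation p of the difference was 0.0159 in mice labelled WT, lower on 5 of 5 slides, and 0.0476 in those labelled Il10-/-, lower on 4 of 5. Most of the values compared were not well above background, so a fall of Mcpt8 is not established.

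Other basophil genes that passed the test rose. Of 10 in the list 7 passed both filters, and in mice labelled WT Ltc4s (2.26, SE 0.32), which makes leukotriene C4, Cd63 (2.09, SE 0.38) and Hdc (1.55, SE 0.25), which makes histamine, rose and 0 fell, with a median of 1.42. Ltc4s (2.11, SE 0.24) and Il4 (0.83, SE 0.14) rose in those labelled Il10-/- and 0 fell, with a median of 0.90. Hdc was the 1 gene of the list to differ between unirradiated genotypes, higher in mice labelled Il10-/- by 1.47 (SE 0.23), and this call was lost with quantile normalization. The Hdc call in mice labelled WT was lost with array median scaling and quantile normalization, and the Il4 call with each of the 3 other scalings. Cd63 and Hdc are also expressed by other blood cells. Which cells gave the signal of Ltc4s or of the other genes of the list was not tested. Prss34, a protease of basophils, did not pass (0.49 and -0.93), with 1 of 5 irradiated arrays labelled Il10-/- well above background.

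Fcer1a, the IgE-binding chain of the receptor, did not pass the threshold in any comparison. Its signals were 4.94, 4.85, 4.62, 4.05 and 4.79 in unirradiated and 5.59, 5.52, 4.64, 4.97 and 4.65 in irradiated mice labelled WT. The values in mice labelled Il10-/- were 3.67, 3.65, 5.29, 3.08 and 3.79 without and 3.73, 3.53, 3.94, 4.50 and 5.33 with irradiation. Groups overlapped in all 4 comparisons, with unirradiated replicate 3 and irradiated replicate 5 the highest of the mice labelled Il10-/-. The log2 difference after 7 Gy was 0.42 (SE 0.30, adjusted p = 0.332; 0.46 without the weak array) in mice labelled WT, higher on 4 of 5 slides, and 0.31 (SE 0.44, adjusted p = 0.643) in those labelled Il10-/-, higher on 3 of 5. Mice labelled Il10-/- stood at -0.76 (SE 0.39, adjusted p = 0.292; -0.72 without the weak array) without and at -0.87 (SE 0.37, adjusted p = 0.360) with irradiation relative to those labelled WT, lower on 4 of 5 slides each.

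Ms4a2, which encodes the β chain of the receptor, was not well above background on any array; its highest value, 6.05 on the weak unirradiated replicate 5 labelled WT, was not well above background there, and the other 19 arrays ranged from 0.02 to 3.21. Of 14 genes for the shared chain and the signalling of the receptor, 9 passed both filters and 0 were called by limma in any of the comparisons. Fcer1g, the γ chain that several Fc receptors share, was well above background on all 20 arrays and differed after 7 Gy by 0.93 (SE 0.25) in mice labelled WT and 0.73 (SE 0.28) in those labelled Il10-/-. Plcg2, a phospholipase of immune receptor signalling, stood lowest of the 14, at -1.01 (SE 0.30) and -0.90 (SE 0.21), without passing. The most alike probes to Fcer1a were Il1rl1, the interleukin 33 receptor of mast cells (r = 0.709), Nsdhl (0.694) and Cma2 (0.666).

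Il5ra, the receptor chain that gives eosinophils their response to interleukin 5 and that B-1 cells also carry, fell after irradiation. Its signals were 6.63, 6.39, 6.11, 5.84 and 6.02 in unirradiated and 4.34, 4.29, 4.85, 4.71 and 4.87 in irradiated mice labelled WT. Those of mice labelled Il10-/- were 5.06, 5.03, 5.76, 5.96 and 4.71 without and 4.25, 4.75, 3.80, 3.67 and 3.83 with irradiation. The irradiated arrays labelled WT were all below the unirradiated ones, and in mice labelled Il10-/- the groups overlapped between 4.71 and 4.75, with irradiated replicates 3, 4 and 5 not well above background. The fall was 3.00-fold in mice labelled WT (log2 difference -1.59, SE 0.27, adjusted p = 0.00211), lower on 5 of 5 slides, and the log2 difference was -1.63 without the weak array. This call was lost with array median scaling (-1.48, adjusted p = 0.0245) and with replicates 1 and 2 averaged (-1.43, adjusted p = 0.0214). With normexp Il5ra did not reach the test, since of the 4 members Cpa3 alone passed the filters there.

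Il5ra differed in mice labelled Il10-/- by -1.25 (SE 0.30, adjusted p = 0.0121), lower on 5 of 5 slides by -2.29 to -0.28, and missed the threshold of the unadjusted p. It passed with array median scaling (-1.39), with the 75th percentile scaling (-1.37), with all 4 groups in 1 fit, with a 5% rate alone, and without unirradiated replicate 5 (-1.39) or irradiated replicate 2 (-1.42) labelled Il10-/-. The difference of both responses was 0.34 (SE 0.39, adjusted p = 0.759), so the genotypes are not shown to differ in it. Without irradiation Il5ra was lower in mice labelled Il10-/- by -0.89 (SE 0.31, adjusted p = 0.192; -0.94 without the weak array), on 4 of 5 slides, and with irradiation by -0.55 (SE 0.26, adjusted p = 0.395), also on 4 of 5. The means stood in the order 6.20 ± 0.31 (SD, n = 5), 5.31 ± 0.53, 4.61 ± 0.28 and 4.06 ± 0.44 for unirradiated WT, unirradiated Il10-/-, irradiated WT and irradiated Il10-/- labels.

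Ccr3, the eotaxin receptor of eosinophils, had the pattern closest to Il5ra among the members (r = 0.833 over 20 arrays, and 0.765 for deviations from the group means). Its signals were 6.42, 6.32, 6.06, 5.90 and 6.96 in unirradiated and 4.71, 4.56, 5.01, 5.09 and 5.58 in irradiated mice labelled WT. Mice labelled Il10-/- had 4.54, 4.06, 6.37, 6.09 and 5.10 without and 5.58, 5.71, 3.88, 3.73 and 4.50 with irradiation. The groups labelled WT did not overlap, whereas in mice labelled Il10-/- replicates 1 and 2 were higher with irradiation and replicates 3, 4 and 5 lower, the last 3 of them not well above background after 7 Gy. Ccr3 fell in mice labelled WT 2.53-fold (log2 difference -1.34, SE 0.30, adjusted p = 0.00800), lower on 5 of 5 slides. The adjusted p passed, but the unadjusted one lay close to its threshold: when 1 of the 10 arrays was omitted at a time it held 2 times, without unirradiated replicate 4 (-1.45) or irradiated replicate 5 (-1.49), and it was lost without each of the other 8, the weak array among them (-1.18). It was also lost with array median scaling (-1.23), with quantile normalization (-1.43), with all 4 groups in 1 fit, with the slide as a block and with replicates 1 and 2 averaged (-1.24), and Ccr3 was not tested with normexp.

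The Ccr3 difference in mice labelled Il10-/- was -0.55 (SE 0.53, adjusted p = 0.484), lower on 3 of 5 slides, and the difference of both responses was 0.79 (SE 0.63, adjusted p = 0.672). Without irradiation mice labelled Il10-/- stood at -1.10 (SE 0.44, adjusted p = 0.217; -0.94 without the weak array) relative to those labelled WT, lower on 3 of 5 slides, and with irradiation at -0.31 (SE 0.42, adjusted p = 0.791), also lower on 3 of 5. Itga10 (r = 0.829) and Colq (0.819) followed Il5ra as the probes most like Ccr3. Those most like Il5ra were Rnase6 (0.934), Fanca (0.927) and Fcrla (0.927), the last a gene of B cells.

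B cell genes fell in the same arrays. All 5 of 5 B cell markers passed both filters, 4 of the 5 fell in each genotype after 7 Gy, with medians of -3.02 and -3.41, and each was well above background on at least 13 of 20 arrays. Their summed log2 signal, with Cd79b the most abundant, was 13.78, 13.74, 13.43, 12.60 and 13.43 in unirradiated and 10.02, 9.94, 10.50, 10.26 and 10.77 in irradiated mice labelled WT. The sums in mice labelled Il10-/- were 12.89, 12.87, 13.27, 13.39 and 12.09 without and 9.38, 9.59, 10.03, 9.36 and 9.17 with irradiation. Unirradiated replicates 1, 2 and 5 labelled Il10-/- were the lowest of their group in this sum and in Il5ra alike. What part B cells have in the Il5ra signal was not tested.

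**Figure D3:**
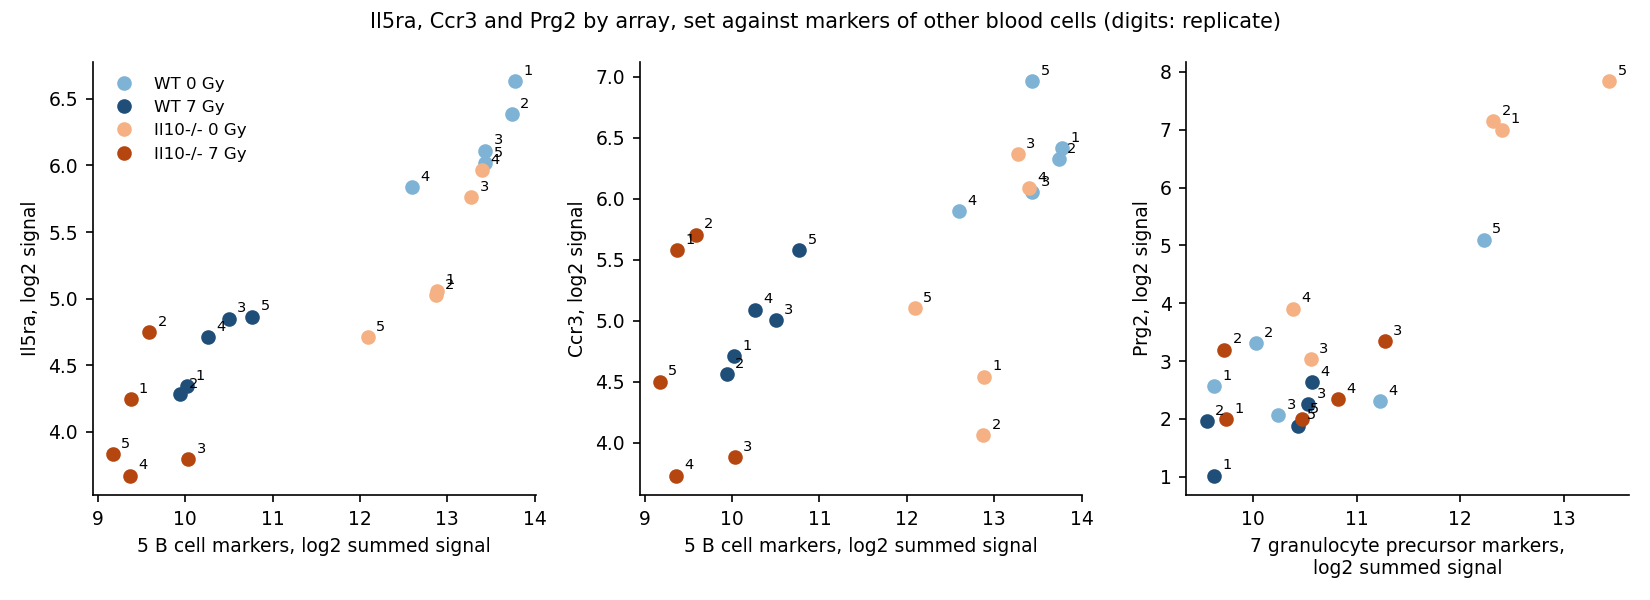
Log2 signal of Il5ra and of Ccr3 on each of the 20 arrays against the log2 summed signal of 5 B cell markers, and log2 signal of Prg2 against that of 7 granulocyte precursor markers; colours give the groups and digits the replicates. The irradiated arrays lie at B cell sums of 9.17 to 10.77, and the 3 arrays with Prg2 at 7.00 to 7.84 have precursor sums of 12.32 to 13.44.

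Other eosinophil genes did not all follow Ccr3 and Il5ra. Of 9 in the list 8 were on the array and 7 passed both filters. In mice labelled WT 2 rose and 0 fell, namely Alox15 (3.21, SE 0.55), a lipoxygenase of eosinophils and macrophages, and Adgre1 (2.67, SE 0.34), which encodes a surface receptor of macrophages and eosinophils, while the median of the 7 was -1.10. The same 2 genes rose in mice labelled Il10-/- (2.18, SE 0.46, and 1.81, SE 0.30), and 3 ribonuclease genes fell, Ear2 (-2.02, SE 0.26), Ear1 (-2.00, SE 0.26) and Ear10 (-1.96, SE 0.31), with a median of -0.89; the Alox15 call in this genotype was lost with quantile normalization. In mice labelled WT these 3 stood at -1.18, -1.21 and -1.19 and missed the threshold, and Siglecf, a lectin of eosinophils, at -1.10 (SE 0.29) and -0.75 (SE 0.47) did not pass in either genotype, and 3 of 5 irradiated arrays labelled Il10-/- were well above background for it. Unirradiated replicate 4 labelled WT, which stood apart, was the lowest of its group for Ear1 (6.48, against 7.56 to 8.34) and Ear2 (8.21, against 9.58 to 10.33). The difference of both responses was -0.85 (SE 0.45) for Ear2, and 0 of the 7 were called for it by limma. The Ear genes are similar in sequence, so that their probes may share targets.

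Cd200r3, an activating receptor of basophils and mast cells, was not well above background on any array with either probe; the 2 ranged from 0.54 to 3.72 and from 0.93 to 3.88 over the 20 arrays. Of 12 other genes listed with the receptors of these cells, 10 passed both filters, and 0 were called in mice labelled WT. In mice labelled Il10-/- Il3ra, the interleukin 3 receptor chain of basophils, rose by 0.93 (SE 0.18). Cd200, listed as a ligand of CD200 receptors and not as a receptor, fell by 1.46 (SE 0.28) in the same genotype. It went from 5 of 5 to 1 of 5 arrays well above background, so that this size rests in part on dim values. In mice labelled WT the same 2 stood at 1.17 (SE 0.30) and -1.88 (SE 0.52), below the threshold of the test. With each of the 3 other scalings 1 of the 2 calls was kept.

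Epx, the eosinophil peroxidase, was well above background on 1 array, unirradiated replicate 1 labelled Il10-/- (3.38), and ranged from 0.34 to 3.63 over all 20. Prg2, the eosinophil major basic protein, was the granule gene with signal. Its values were 2.57, 3.31, 2.07, 2.31 and 5.10 in unirradiated and 1.02, 1.96, 2.26, 2.63 and 1.89 in irradiated mice labelled WT, none of them well above background. Values in mice labelled Il10-/- were 7.00, 7.15, 3.04, 3.91 and 7.84 without and 2.00, 3.20, 3.34, 2.34 and 1.99 with irradiation. Unirradiated replicates 1, 2 and 5 labelled Il10-/- stood above all other arrays, with 4 of 5 of that group and 1 of 5 of the irradiated group well above background, and the groups overlapped at their low ends.

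The mean Prg2 signal of the 5 unirradiated arrays labelled Il10-/- was at least 3.82-fold that of the arrays labelled WT. For this limit the WT values were counted at no less than the level at which spots were called well above background. With 1 array left out this limit was 2.68-fold to 6.15-fold, the highest without unirradiated replicate 3 labelled Il10-/-. The arrays labelled Il10-/- were higher on 5 of 5 slides, with an exact permutation p of 0.0635, so a genotype difference of Prg2 is not established. The weak array held the highest value of the WT label. After 7 Gy the Prg2 signal in mice labelled Il10-/- was lower on 4 of 5 slides, with an exact permutation p of 0.0238; 4 of the 5 irradiated arrays were not well above background, and no fold is given. Of the 7 granulocyte precursor markers, led by Elane and all past both filters, 3 were called higher in unirradiated mice labelled Il10-/-, Ltf (5.37, SE 0.82), Ngp (4.87, SE 0.75) and Camp (3.27, SE 0.65). Of the unirradiated arrays labelled WT, 2 of 5 were well above background for Ltf and 1 of 5 for Ngp, so these 2 sizes rest in part on dim values. Mpo fell after 7 Gy in mice labelled Il10-/- at least 1.67-fold (adjusted p = 0.00842), with 5 of 5 unirradiated and 0 of 5 irradiated arrays well above background. In mice labelled WT Prtn3 rose by 2.58 (SE 0.32), from 2 of 5 to 5 of 5 arrays well above background. The Camp call was lost with the 75th percentile scaling and with quantile normalization.

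The precursor sum was 9.62, 10.03, 10.24, 11.23 and 12.22 in unirradiated and 9.63, 9.55, 10.53, 10.57 and 10.44 in irradiated mice labelled WT, and 12.40, 12.32, 10.56, 10.39 and 13.44 against 9.74, 9.72, 11.27, 10.82 and 10.47 in those labelled Il10-/-. The same unirradiated replicates 1, 2 and 5 labelled Il10-/- were highest in this sum and in Prg2. What part such precursors have in the Prg2 signal was not tested. Over all 10 member probes, 3, 5, 5 and 2 had an exact permutation p under 0.05 without correction in the genotype comparison at 0 Gy, the comparison of doses in either genotype (WT label first), and the genotype comparison at 7 Gy, where 22.9%, 21.1%, 42.3% and 9.42% of all probes of the array did. Of the member probes so counted, 2, 2, 3 and 0 were dim, and those of Ms4a2 and Cd200r3 among them were well above background on 0 of 20 arrays.

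**Figure D4:**
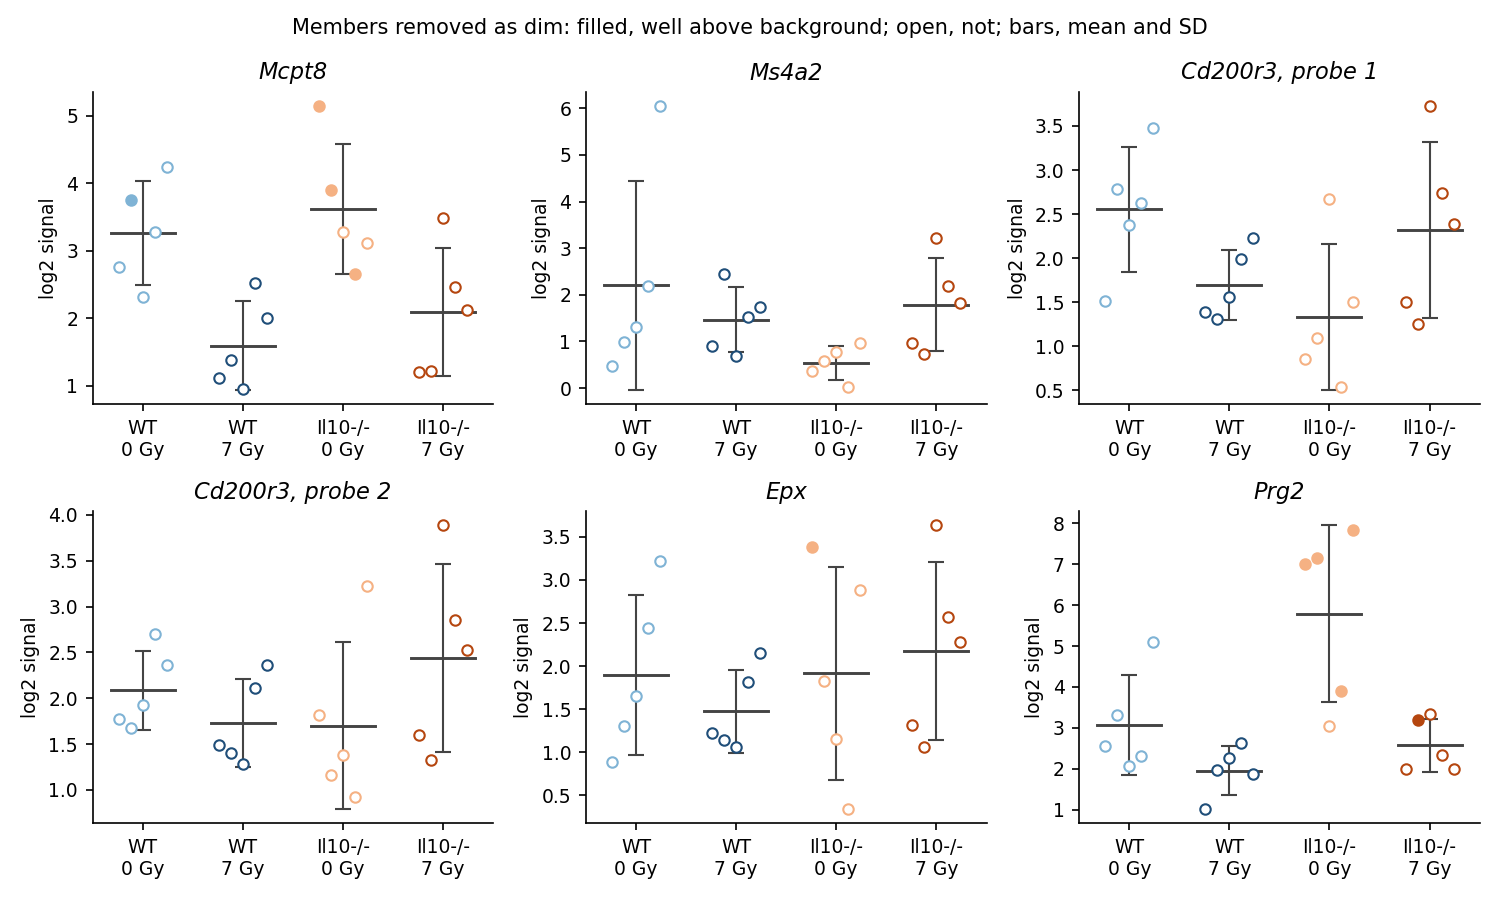
Log2 signal of the 6 member probes removed as dim, by group. Each point is 1 array, with replicates 1 to 5 from left to right, filled where the probe was well above background; lines and bars give the mean and SD of 5 arrays. Prg2 lies at 7.00 to 7.84 on 3 unirradiated arrays labelled Il10-/-, and all points of Ms4a2 and Cd200r3 are open.

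Among ligands of these cells, Ccl24, an eotaxin that binds CCR3, rose in both genotypes, by 3.45 (SE 0.30) in mice labelled WT and 2.89 (SE 0.44) in those labelled Il10-/-. Il33, an alarmin that acts on mast cells and basophils, rose in mice labelled Il10-/- (1.65, SE 0.32) and stood at 2.53 (SE 0.71) in those labelled WT without passing; it was dim, well above background on 2 and 3 of 5 arrays labelled Il10-/- and on 1 and 4 of 5 labelled WT without and with irradiation. Of the 12 ligands listed 4 passed both filters, 1 and 2 rose and 0 fell, and Il5, the ligand of the IL5RA chain, was well above background on 0 of 20 arrays. Of 11 transcription factors of these lineages 9 passed both filters: Mitf (2.33, SE 0.41; 3 of 5 unirradiated arrays well above background), Cebpa (2.26, SE 0.40) and Gata2 (1.21, SE 0.22) rose in mice labelled WT, and 0 were called by limma in those labelled Il10-/-, where they stood at 1.01, 1.16 and 1.21. Under each of the 3 other scalings 2 of the 3 calls were kept.

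**Figure D5:**
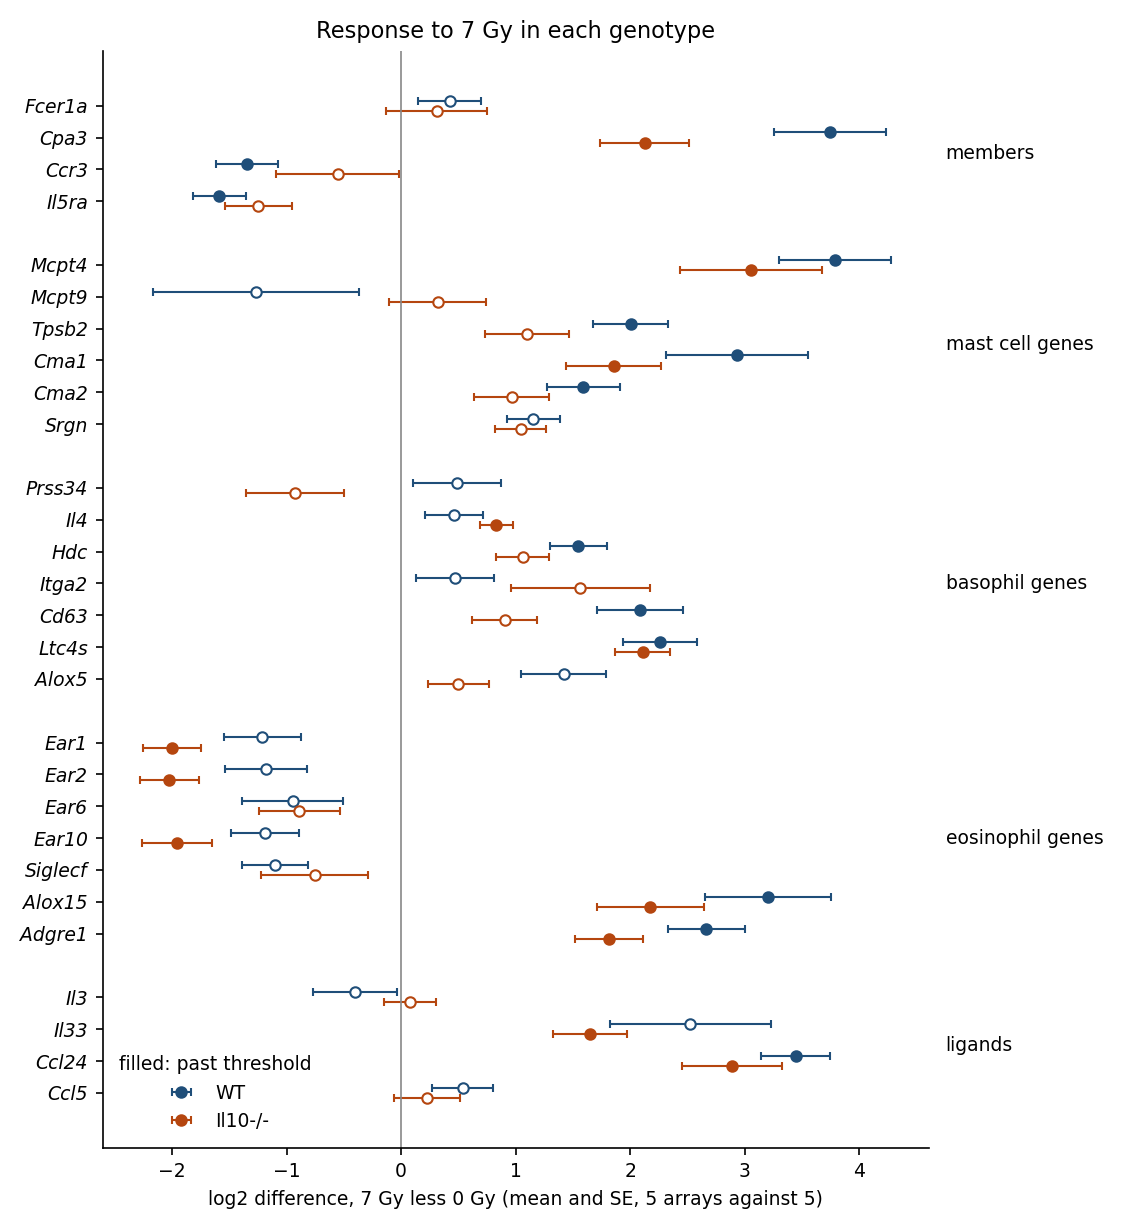
Log2 difference between 7 Gy and 0 Gy, with its SE from the model fitted to all probes past the background filter, in mice labelled WT and Il10-/- for the 4 measured members and for genes of the mast cell, basophil, eosinophil and ligand lists; filled points passed the threshold. Cpa3 (3.75 and 2.13) and Mcpt4 (3.79 and 3.06) rose in both genotypes, whereas Il5ra (-1.59 and -1.25) and Ccr3 (-1.34 and -0.55) lie to the left and passed in mice labelled WT.

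Marker genes of the remaining blood cells moved as follows beside these results. Of 6 neutrophil markers 2 were called higher in unirradiated mice labelled Il10-/-, S100a8 (2.04, SE 0.40) and Retnlg (2.57, SE 0.44), and 0 were called after irradiation in either genotype; 1 of these 2 calls was kept with the 75th percentile scaling and 0 with quantile normalization, while array median scaling called 4. Erythroid markers fell for 3 of 4 in each genotype, Cd8a fell in both (-3.15 and -1.95) as the 1 T cell marker called of 4, with 1 and 2 of 5 irradiated arrays well above background, and of 4 NK cell markers 0 were called by limma. Of 5 platelet markers Gp1bb rose in mice labelled WT (1.26, SE 0.24), a call lost with each of the 3 other scalings, while quantile normalization called 3 of the other markers. The platelet medians after 7 Gy were 1.16 in mice labelled WT and 1.34 in those labelled Il10-/-. Their summed log2 signal was 15.69 to 16.57 without and 17.01 to 17.89 with irradiation in mice labelled WT. In those labelled Il10-/- it was 15.27 to 17.36 and 17.71 to 18.11. Of 4 monocyte markers tested Cd14 rose (2.69 and 1.36) and Cx3cr1 fell (-2.40 and -2.99) in both genotypes, Ccr2 fell in mice labelled Il10-/- (-1.24, SE 0.20), and Cd14 was called higher in unirradiated mice labelled Il10-/- (1.92, SE 0.37). The Cd14 call was lost with each of the 3 other scalings in the Il10-/- response, and with the 75th percentile scaling and quantile normalization between unirradiated genotypes. Liver markers were called higher for 3 of 6 after 7 Gy in mice labelled WT and heart muscle markers for 3 of 5 in those labelled Il10-/-, or for 5 of 5 with array median scaling and with the 75th percentile scaling.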

How the data were processed

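Whole-blood RNA of 20 mice was hybridized to single-colour Agilent arrays. The deposited text files hold, per the file headers, background-corrected intensity (the processed signal) written by Feature Extraction 12.0.2.2, whereas the labels name version 10.7. The deposited table of the authors holds log2 values, normalized per array, of the features they kept. Probe positions are in mm9, the build of the headers.

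Processed signals of non-control probes were put on the log2 scale, repeated spots were averaged, and each array was scaled by its median log2 distance from unirradiated replicate 3 labelled Il10-/-, over spots not marked on either array. These constants lay within 0.0526 of those in the authors' table. A probe was removed when 25% or more of arrays marked it as an outlier or as not above background, or when less than 20% of arrays lay 1.5-fold or further from its median. The 16410 features left (14167 genes) were fitted by limma 3.58.1 in R 4.3.3, and a call needed an unadjusted p under 0.001 and a false discovery rate (Benjamini-Hochberg) of less than 10%. For listed genes other than the members, calls come from this fit, and the SE from the same model fitted to all probes past the background filter alone. Of 63 such calls this second fit did not make 6, namely Cma1, Mpo and Myl2 in the Il10-/- response, Ttr in the WT response, and S100a8 and Camp between unirradiated genotypes, and it made 4 others. Each member probe, removed or not, was also compared by a 2-sided exact permutation test, with no correction over the list. The code was tested on simulated data.

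The text names all probes of the 9 members. Of each other list (eosinophil, basophil and mast cell genes, IgE receptor signalling, ligands, receptors, transcription factors) it names up to 3 called genes of largest size per comparison, and otherwise the brightest and the most changed, with 1 probe a gene; markers of blood cells, liver and heart muscle were listed as well. Cma2, Ear10, Siglecf, Prss34, Kit, Mcpt1, Mcpt2, Mcpt9, Mrgprb2 and Il5, and values of a called gene in the genotype where it did not pass, were singled out after the values were seen. Probes most like a member were ranked by Pearson r among probes past the background filter. The members and lists were chosen with earlier results of these data known. Alternatives were 3 other scalings, normexp background correction (offset 50), the authors' values, weaker filters, 1 fit of all groups, the slide as a block, a 5% rate, each array left out, and replicates 1 and 2 averaged. Promoter windows are from RefSeq, read with Python 3.11.15 and pandas 2.3.3. With 5 arrays a group, the smallest exact p is 0.00794.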

Additional observations from a re-analysis of the deposited data

Results flagged for a closer look

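In unirradiated mice labelled Il10-/-, Cpa3 had 1 array far from the others: replicate 3, with a log2 signal of 6.43 against 4.41 to 4.56 on the other 4. The gap to the nearest array was 0.929 of the range of the group. It was the 1 array set apart among the 44 groups of arrays examined for the 10 member probes and Il10, where chance sets apart about 1 in 20 groups. The array of the same slide in unirradiated mice labelled WT was also the highest of its group, at 6.68. Without this array the Cpa3 difference between 7 Gy and 0 Gy in mice labelled Il10-/- was 2.51 and was called.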

How the results depend on the processing

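Of 441 differences of the 4 tested members under alternatives, 408 kept direction and side of the threshold, 17 lost their call, 6 gained one, and 10 turned sign, 0 of them where the difference was called. Those that turned were Cpa3 between unirradiated genotypes, -0.033 with normexp and -0.28 to 0.58 with 1 array left out, and the difference of the Fcer1a responses, 0.032 with replicates 1 and 2 averaged and -0.39 to 0.24 with 1 array left out. The cause was not tested.

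Member calls in mice labelled WT, 3 of 4, were 1 (Cpa3) with array median scaling, with normexp and with replicates 1 and 2 averaged, and 2 to 3 with 1 array left out. In mice labelled Il10-/-, 1 of 4, they were 2 (Cpa3 and Il5ra) with array median scaling, 75th percentile scaling, 1 fit of all 4 groups and the 5% rate, 0 by limma with normexp and with replicates 1 and 2 averaged, and 1 to 2 with 1 array left out. Of 40 exact tests 15 had p under 0.05, 7 of the 15 on dim probes; the count was 7 with the authors' values and 11 to 16 with 1 array left out. The authors' table holds 4 of the 10 member probes, so fewer tests were run on it. Averaging replicates 1 and 2 was chosen after the data were seen, and leaves 4 samples a group.

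Features called between unirradiated genotypes, 77, were 157 with array median scaling, 43 with 75th percentile scaling, 25 with quantile normalization, 0 with normexp by limma, 5 without filters, 204 in 1 fit of all groups, 31 with the slide as a block, 15 at the 5% rate, 1 with replicates averaged, and 4 to 83 with 1 array left out. In mice labelled WT, 1815 became 348 with normexp, 2815 in 1 fit, 4115 at the 5% rate and 832 with replicates averaged, and 1181 to 1750 with 1 array left out. In mice labelled Il10-/-, 1851 became 1 with normexp, 4166 at the 5% rate and 909 with replicates averaged. Normexp left 9543 features and 1 member (Cpa3) to test. Between irradiated genotypes 0 by limma became 1 with array median scaling, 75th percentile scaling, quantile normalization and without filters, and 6 without the filter on change. Of the calls in mice labelled Il10-/-, 50.9% were higher, and 35.9%, 37.5% and 40.4% with array median, 75th percentile and quantile scaling; in mice labelled WT 59.6% were higher and 93.4% with normexp. The median of all genes moved by 0.31, 0.11 and -0.15 with array median scaling (unirradiated genotypes, WT and Il10-/- responses), by -0.12 in both responses with 75th percentile scaling, and by -0.19 in the Il10-/- response with quantile normalization.

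With the slide as a block, Cpa3 was called in mice labelled WT (3.75, SE 0.49, adjusted p = 0.0032) and Il10-/- (2.13, SE 0.34, adjusted p = 0.0096), Il5ra in mice labelled WT (SE 0.29, adjusted p = 0.0089), and Ccr3 was not (SE 0.27, adjusted p = 0.0111); each showed its direction on 5 of 5 slides. Arrays of 1 slide were not paired throughout: the mean correlation of their deviations from the group means was 0.235, -0.00, 0.076, -0.131, 0.414 and -0.064 over the 6 pairs of groups, and at most 4 of 5 slides exceeded 0.1. Signal over background limits the members: 6 of 10 probes were dim, and bulk blood gives no count of cells.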
